A study of Mus musculus with 12 samples.

Results

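The comparison asks, gene by gene, whether the loss of Keap1 had a different effect after 48 h than after 24 h of T-cell activation. It uses all 12 of the 12 libraries of the series, 3 in each of 4 groups, and 13196 of the 32699 genes in the count file, those with enough counts to test. The cells were mouse naive CD4+ T cells, either wild type (WT) or Keap1 knockout (KKO), and all 4 groups were activated in vitro through CD3 and CD28 by antibodies, for 24 h or for 48 h. No resting cells are among the 12 libraries, so every value is from activated cells. The labels do not say which part of Keap1 was removed, in which cells of the mouse it was removed, or how old the mice were. Whether the 3 libraries of each group stem from different animals or cultures is not labelled either. The p-values measure the spread between these libraries, which may be technical in part. Sex-linked transcripts, given below, differed within each group, so the libraries of a group did not all come from the same animal. The measured quantity is the log2 fold change of KKO over WT at 48 h minus the same at 24 h, called the difference of effects below. A gene was called when its p from edgeR's quasi-likelihood test, adjusted over the 13196 genes by the Benjamini-Hochberg method, was under 0.05.

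KEAP1 is the adaptor that hands the transcription factor NRF2 (gene Nfe2l2) to a ubiquitin ligase, so that NRF2 is degraded in unstressed cells. Without KEAP1, NRF2 accumulates and drives genes for antioxidant enzymes, glutathione and NADPH through antioxidant response elements in their promoters. T cells stimulated through the antigen receptor and CD28 leave quiescence, divide and begin to make cytokines over the times sampled here. A difference of effects can arise from a response in WT that KKO cells lack, from a KKO response that WT cells lack, or from effects of opposite sign, so each gene is given with its level in all 4 groups.

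The knockout label held at both times. Keap1 was at 107 ± 1.48 counts per M (CPM; SD, n = 3) in WT and 16.6 ± 0.906 CPM (SD, n = 3) in KKO at 24 h, and at 126 ± 5.16 and 21.2 ± 1.21 CPM (SD, n = 3 each) at 48 h. Its difference of effects was 0.11 ± 0.08 (log2, SE; adjusted p = 0.432, edgeR). Nfe2l2 mRNA stood at 29.1, 29, 39 and 39.8 CPM in WT and KKO at 24 h and WT and KKO at 48 h, with a difference of effects of 0.04 ± 0.09 (adjusted p = 0.852, edgeR).

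Library totals ran from 17.8 to 32.6 M counts. Markers of CD4 T cells (10 genes, Cd4 and Cd3e among them) summed to 3060 to 3220 CPM in the 4 group means, and 0 of the 10 were called by edgeR in the difference of effects (3 at an unadjusted p under 0.05, 2 by DESeq2); 4 were called without KKO replicate 2 at 48 h, and 1 each without WT replicate 1 at 24 h or WT replicate 3 at 48 h. B cell markers summed to 13.6 and 14.0 CPM in WT but 25.6 and 28.8 CPM in KKO at 24 h and 48 h, and 0 of their 7 tested genes were called in the difference by edgeR or DESeq2, or had an unadjusted p under 0.05, and 1 was called without KKO replicate 2 at 48 h. Sex-linked transcripts differed between libraries. In WT, replicates 1 and 2 held Xist and replicate 3 held Y-linked transcripts at both times. In KKO, 2 libraries held both kinds: replicate 1 at 24 h (Xist 76.2 CPM, summed Y-linked transcripts 125 CPM) and replicate 3 at 48 h (105 and 149 CPM). KKO replicate 2 at 48 h stood apart from its group (Spearman's rho 0.989 and 0.992 with the other two, which had 0.996 with each other). It was the KKO library nearest to the WT mean at 48 h in 60.2% of all tested genes, in 89.6% of the genes called higher and in 81.3% of those called lower in the difference of effects.

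The effect of Keap1 loss differed between the times in 552 genes, which is 4.18% of those tested. In 193 (1.46%) it was higher at 48 h and in 359 (2.72%) it was lower. Of the 13196 tested genes, 2978 had an unadjusted p under 0.05 in the difference of effects, and DESeq2 called 1120. In 450 of the 552 genes (81.5%) the effect was larger in size at 48 h, as it was in 70.9% of all tested genes. At the single times, 307 genes (2.33%) were called at 24 h and 3209 (24.3%) at 48 h. The 24 h and 48 h effects share no libraries with each other, while the difference of effects uses all libraries of both. Among the 359 genes called lower, the median effect was 0.15 at 24 h and -0.50 at 48 h, and the median time change (48 h over 24 h, log2) was 0.62 in WT and -0.11 in KKO. Among the 193 called higher, the median effect was -0.08 at 24 h and 0.50 at 48 h, with a median time change of 0.27 in WT and 0.85 in KKO. Of the lower genes, 247 rose with time in WT and 113 in KKO, where 150 fell. Of the higher genes, 168 rose with time in KKO and 97 in WT. Of all tested genes, 31.0% rose with time in WT and 34.4% in KKO, where 33.4% fell.

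Most of the 552 genes were called between the genotypes at 48 h and not at 24 h, which does not show equal levels at 24 h. By the calls at the single times, 176 of the 193 higher and 279 of the 359 lower genes were called at 48 h and not at 24 h. Another 44 lower and 4 higher genes were called at 24 h and not at 48 h. Over all 13196 tested genes, 3018 were called at 48 h and not at 24 h. The reverse held for 116, and 9871 were called at neither time. In 11 genes both effects were called, with opposite signs. In 32 genes, 23 lower and 9 higher, neither single effect was called, although their difference was. The count moved by over 1.5 times on leaving out any 1 library other than WT replicate 3 at 48 h (828 genes called without it). It was 3217 of 13525 tested genes (1270 higher, 1947 lower) without KKO replicate 2 at 48 h and 143 to 361 without any 1 of the other 10. List counts without KKO replicate 2 at 48 h, given below, stand beside those 3217. Without the 2 libraries of mixed sex-linked transcripts 54 were called (10 higher, 44 lower), 52 of them among the 552. Of the 13391 genes tested without those 2 libraries, 2198 had an unadjusted p under 0.05. All 552 genes kept their sign without KKO replicate 2 at 48 h and without the mixed libraries. Both fits reuse libraries by which the 552 were chosen. The part that sex or cell origin plays in these results was not tested.

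**Figure D1:**
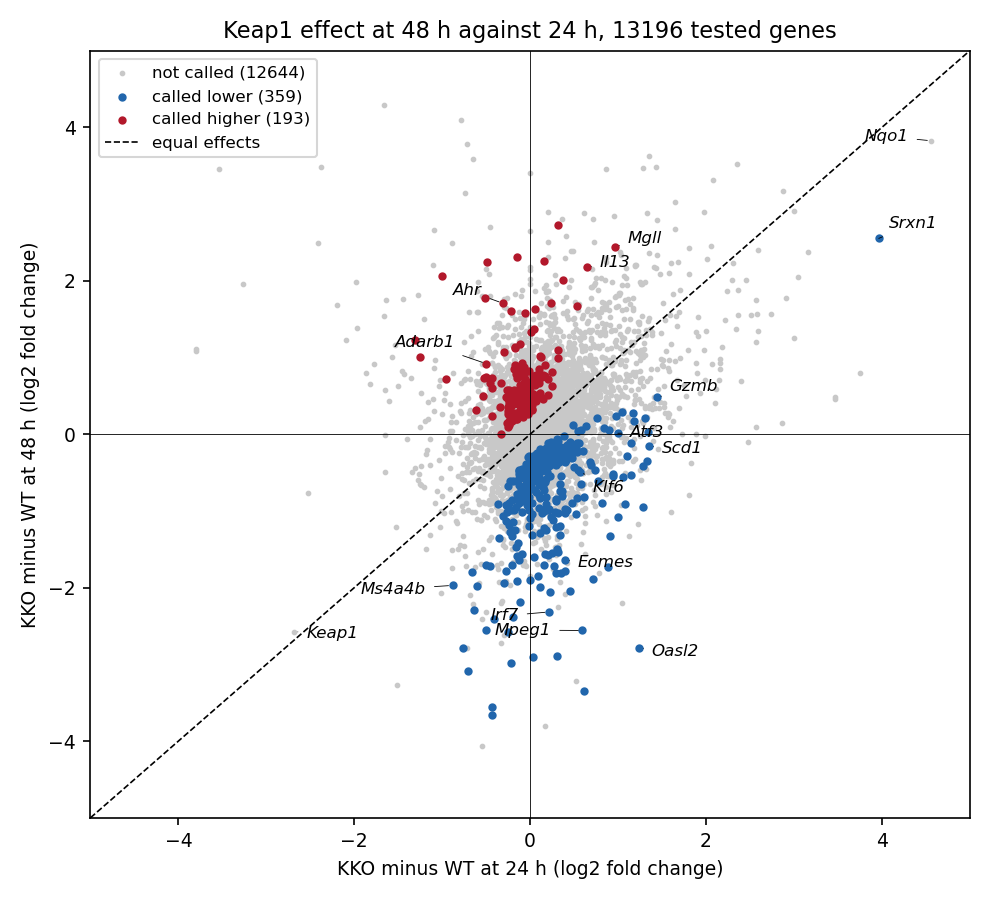
Each point is 1 of 13196 tested genes, with its KKO over WT log2 fold change at 24 h on the horizontal axis and at 48 h on the vertical axis; 193 genes called higher are red, 359 called lower are blue, and 9 uncalled points lie beyond the axis limits of 5. Called genes lie away from the dashed line of equal effects, and in 450 of the 552 the effect is larger in size on the 48 h axis.

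Genes of the interferon response had the lowest median difference of the 28 gene lists compared. Of 37 tested interferon-stimulated genes, 28 were called lower, 0 higher and 9 did not pass; 36 of the 37 values lay below 0. The median difference of effects over the 37 was -1.26, beside -0.01 over all tested genes. Their median KKO effect was 0.12 at 24 h, where edgeR called 0 (5 at an unadjusted p under 0.05) and DESeq2 1, and -1.09 at 48 h, where 33 were called lower (11.9% of all tested genes were). Over time the median member stood 2.35 higher at 48 h in WT and 0.87 higher in KKO (log2). In bulk RNA, fewer cells with an interferon response and less response RNA per cell cannot be told apart.

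Oasl2 (chr5:114896926-114912245, GRCm38), an oligoadenylate synthetase-like antiviral protein, had the largest called difference. It was at 0.25, 0.308 and 0.214 CPM in the WT libraries and 0.537, 0.903 and 0.426 CPM in the KKO libraries at 24 h. At 48 h it was at 6.58, 11.1 and 11 CPM in WT and 1.18, 1.3 and 1.67 CPM in KKO. The groups did not overlap at either time, but their order turned: KKO was the higher group at 24 h, a difference that did not pass (1.24 ± 0.40, adjusted p = 0.158, edgeR), and the lower one at 48 h. Between the times Oasl2 rose 36.2-fold in WT and 2.22-fold in KKO. Its difference of effects was -4.03 ± 0.48 (adjusted p = 0.000813, edgeR), with few counts behind the 24 h values.

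Irf7, the transcription factor that amplifies type I interferon production, was at 1.36, 1.39 and 1.75 CPM in WT and 1.93, 2.01 and 1.23 CPM in KKO at 24 h. Its 48 h libraries were at 24.1, 38.5 and 34.2 CPM in WT and 5.85, 6.79 and 6.82 CPM in KKO. The genotypes overlapped at 24 h and were far apart at 48 h, when every library of both genotypes lay above all 24 h libraries. Irf7 rose 21.5-fold in WT and 3.73-fold in KKO, and its difference of effects was -2.53 ± 0.30 (adjusted p = 0.000813, edgeR).

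Ifih1, Parp12 and Gbp10 rose with time in WT but not in KKO; Parp12 and Gbp10 are outside the list of 37, as are Slfn1 and Trim25. Ifih1, which encodes the cytosolic RNA sensor MDA5, was at 27.1, 28.1 and 23.6 CPM in WT and 22.5, 26.5 and 21.5 CPM in KKO at 24 h. At 48 h Ifih1 was at 55.5, 63.2 and 64.1 CPM in WT and 18.5, 26.5 and 21 CPM in KKO. The KKO libraries at 48 h thus lay in the range of the KKO libraries at 24 h or just below it, and the difference of effects was -1.31 ± 0.17 (adjusted p = 0.00189, edgeR). Parp12, an ADP-ribosyltransferase with antiviral activity, had group means of 2.69 and 3.15 CPM in WT and KKO at 24 h, then 8.06 and 1.95 CPM at 48 h, with a difference of -2.28 ± 0.27 (adjusted p = 0.000813, edgeR); in KKO it fell with time. Gbp10, a guanylate-binding protein, went from 19.5 to 43.6 CPM in WT and from 17.6 to 14.5 CPM in KKO, a fall that passed the test, with a difference of -1.43 ± 0.15 (adjusted p = 0.000317, edgeR). Reads of Gbp10 and of its near copy Gbp6 may be shared between them by the authors' counting.

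Trim30a, a regulator of innate signalling, rose 4.66-fold in WT and 1.83-fold in KKO, and its difference was -1.35 ± 0.17 (adjusted p = 0.00206, edgeR). Slfn1, a schlafen protein linked to T-cell quiescence, rose 4.13-fold in WT (17.5 to 72.3 CPM) and 1.46-fold in KKO (15.2 to 22.2 CPM), with a difference of -1.50 ± 0.19 (adjusted p = 0.00189, edgeR). Trim25, the ubiquitin ligase of the RIG-I pathway, had 90.2 and 96.5 CPM in WT and KKO at 24 h, then 178 and 115 CPM at 48 h. These genes, with Oasl2, Irf7, Ifih1, Parp12 and Gbp10, were called in each of the 12 fits that left out 1 library and also without the libraries of mixed sex-linked transcripts.

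**Figure D2:**
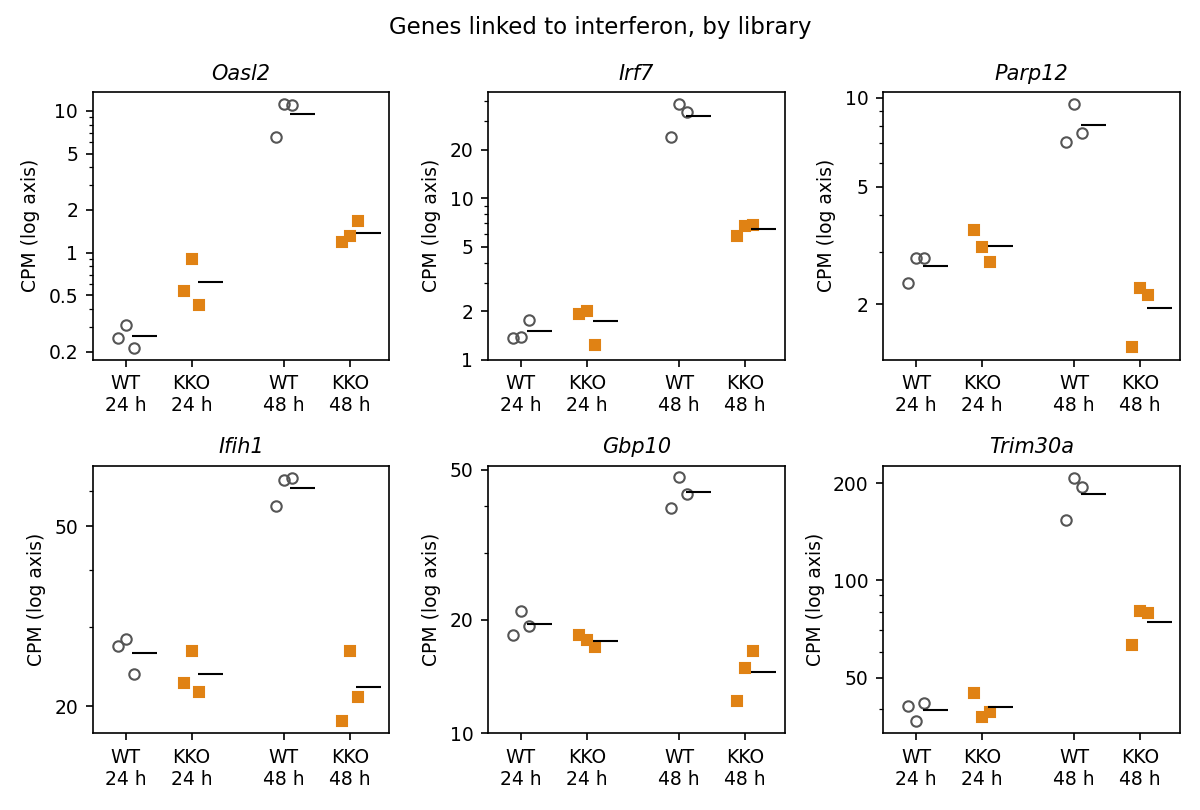
Counts per M (log axis) of 6 genes linked to interferon in each library, with WT as open circles, KKO as filled squares and the group mean as a line. In all 6 genes the 3 WT libraries at 48 h lie above every KKO library at 48 h and above all libraries at 24 h.

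The count of interferon genes called lower ran from 16 to 31 of 37 when single libraries were left out (16 without WT replicate 2 at 48 h), and the median ran from -1.38 to -1.20. Without the libraries of mixed sex-linked transcripts 9 of 37 were called, with a median of -1.25. Markers of macrophages and dendritic cells, which also express many of these genes, were compared. Of the 11 macrophage markers, Lyz2, Csf1r, Adgre1, Cd14 and C1qa had means of at most 0.187 CPM in the 4 groups and were not tested. The summed macrophage markers were at 66.3 to 78.9 CPM in WT and 57.2 to 67.6 CPM in KKO at 24 h, and at 87.7 to 103 CPM and 65.0 to 69.6 CPM at 48 h. Ctss made up most of that sum. Of the 5 macrophage markers tested, 3 had a difference above 0, and the median was 0.43. Mpeg1, a pore-forming protein of that list, was itself called lower: it was at 1.76 and 2.64 CPM in WT and KKO at 24 h, then 11.8 and 2.04 CPM at 48 h (-3.15 ± 0.39, adjusted p = 0.00131, edgeR). Of the same list, Ctss, a lysosomal protease, had effects of -0.30 and -0.62 and was at 55 and 44.5 CPM, then 69.2 and 45.1 CPM. The difference of effects of Ctss did not pass. Cd68, Fcer1g and Itgam went the other way and did not pass. Cd68 was at 2.56 and 3.01 CPM, then 2.85 and 6.28 CPM, and Itgam at 12.1 and 10.3 CPM, then 11 and 12.6 CPM. The 12 dendritic cell markers summed to 122 to 132 CPM in WT and 163 to 175 CPM in KKO at 24 h, and to 226 to 253 CPM and 264 to 269 CPM at 48 h. Most of this sum lay in Cd74, H2-Ab1 and Bst2, of which H2-Ab1, an MHC class II chain, was at 5.93 and 11.3 CPM, then 52.7 and 98.5 CPM. Of the 8 tested, Bst2, an interferon-inducible tetherin, was called lower (-0.79 ± 0.12, adjusted p = 0.0042, edgeR) and 7 did not pass; 3 were called higher in KKO at 24 h, and 4 higher and 1 lower at 48 h. Clec9a was at 0 in all 12 libraries, and Siglech, Xcr1 and Itgax had group means of at most 0.283 CPM. The part of these cells in the interferon values was not tested.

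Guanylate-binding proteins and immunity-related GTPases, which attack vacuoles of intracellular pathogens and are induced by interferon-gamma, formed a related group. Of 17 tested, 12 were called lower, 0 higher and 5 did not pass, with a median difference of -0.76. Not all of them rose with time in WT. Gbp2 was at 711, 713 and 713 CPM in WT and 744, 632 and 677 CPM in KKO at 24 h, and at 596, 643 and 598 CPM in WT and 363, 419 and 355 CPM in KKO at 48 h. The genotypes overlapped at 24 h and were separate at 48 h, when KKO had fallen 1.81-fold from its 24 h level and WT 1.16-fold (difference -0.63 ± 0.10, adjusted p = 0.00541, edgeR). Gbp5 was unlike Gbp2 in WT, where it stood at 200 and 197 CPM at the 2 times, while in KKO it fell from 194 to 118 CPM (-0.69 ± 0.12, adjusted p = 0.00634, edgeR). Irgm2 rose with time in WT, from 66.6 to 86.7 CPM, and fell in KKO, from 60 to 50.6 CPM (-0.63 ± 0.11, adjusted p = 0.00634, edgeR). Tgtp1, Tgtp2 and several Gbp genes are near copies of each other, so their separate values are uncertain. Without WT replicate 2 at 48 h 7 of the 17 were called, and without the libraries of mixed sex-linked transcripts 1 was, Gbp10, with a median of -0.82.

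The promoters of these GTPases are shown because their RNAs moved together and because interferon-activated factors bind a known element, the interferon-stimulated response element. Its core was searched as GAAA, any 2 bases and GAAA again, on both strands in windows from 250 bases before to 50 after the start of each gene (RefSeq, GRCm38.p6). Of the 12 GTPase genes called lower, 8 had a window, and all 8 held the core. Of all 17 GTPase genes tested, 9 had a window and all 9 held the core, so it did not set the called ones apart. The core was present in 3.69% of all tested genes with a window (348 of 9420). It was in 17.3% of such genes called lower (45 of 260) and in 3.77% of those called higher (6 of 159). A gene with several windows was counted as holding the core if any of its windows did. For the 8 GTPase genes called lower, the 30-base stretches around the first match are printed 5′ to 3′ on the strand of the gene. The matched bases are in capitals. In the 4 Gbp genes the match is on the opposite strand and reads as the reverse complement. These matches began 30 (Irgm1) to 165 (Gbp5) bases before the start. A match is a description of the letters and no measurement of binding.
Igtp, chr11:58199512-58199541, + strand: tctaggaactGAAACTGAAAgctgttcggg
Irgm2, chr11:58214903-58214932, + strand: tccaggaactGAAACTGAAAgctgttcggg
Irgm1, chr11:48871431-48871460, - strand: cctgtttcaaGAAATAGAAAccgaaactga
Tgtp1, chr11:48992304-48992333, - strand: tccaggaatcGAAACTGAAAcctacctgac
Gbp2, chr3:142620594-142620623, + strand: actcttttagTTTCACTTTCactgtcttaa
Gbp3, chr3:142559989-142560018, + strand: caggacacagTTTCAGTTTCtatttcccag
Gbp5, chr3:142496759-142496788, + strand: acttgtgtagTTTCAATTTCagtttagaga
Gbp7, chr3:142530273-142530302, + strand: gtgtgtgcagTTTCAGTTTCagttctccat

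In the interferon list 14 of 28 genes with a window held the core, and 10 of 21 of those called lower did. Among the mitosis genes described below, which also were mostly called lower, it was in 1 of 24.

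Genes of MHC class I presentation were called lower in part. Of 19 tested, 5 were called lower, 0 higher and 14 did not pass; all 19 values lay below 0, with a median of -0.28. Tapbp, the chaperone tapasin of the peptide-loading complex, had 240 and 215 CPM in WT and KKO at 24 h, then 297 and 154 CPM at 48 h (-0.79 ± 0.14, adjusted p = 0.0104, edgeR). Nlrc5, the transactivator of MHC class I genes, went from 115 to 132 CPM in WT and from 106 to 71.7 CPM in KKO (-0.77 ± 0.15, adjusted p = 0.0141, edgeR). Tap1 and Tap2, the subunits of the peptide transporter, were called at -0.38 and -0.53. EdgeR called 0 of the 19 without the libraries of mixed sex-linked transcripts (10 at an unadjusted p under 0.05 with them and 8 without), where the median was -0.24. It called 11 without KKO replicate 2 at 48 h, and 1 to 3 without WT replicate 2 or 3 or KKO replicate 1 at 24 h, or without WT replicate 2 or KKO replicate 1 or 3 at 48 h.

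Mitosis genes were also called lower, but by a change of sign of a small effect. Of 29 tested, 22 were called lower, 0 higher and 7 did not pass, with a median difference of -0.55. At 24 h all 29 had higher means in KKO than in WT (median 0.36), 15 of them called, against 1.89% of all tested genes called higher at that time. At 48 h 28 of the 29 lay below 0 (median -0.19), 6 of them called. The median member stood 0.77 higher at 48 h than at 24 h in WT and 0.33 higher in KKO (log2).

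Ube2c, the ubiquitin-conjugating enzyme of the anaphase-promoting complex, was at 38.9, 44.5 and 45.9 CPM in WT and 63.6, 55.3 and 68.2 CPM in KKO at 24 h. By 48 h the libraries stood at 183, 173 and 167 CPM in WT and 142, 165 and 141 CPM in KKO. All KKO libraries lay above all WT libraries at 24 h and below them at 48 h. The effect was 0.53 at 24 h (adjusted p = 0.00385, edgeR) and -0.22 at 48 h (adjusted p = 0.0631, edgeR), and their difference was -0.76 ± 0.12 (adjusted p = 0.00486, edgeR).

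Nusap1 and Tpx2, both microtubule factors of the spindle, gave differences of -0.71 ± 0.12 and -0.60 ± 0.11. Birc5, the survivin subunit of the chromosomal passenger complex, was called at both times with opposite signs, 0.34 at 24 h and -0.20 at 48 h, by group means of 64.1 and 81.4 CPM and then 105 and 91.5 CPM (difference -0.54 ± 0.09, adjusted p = 0.00545, edgeR). Incenp, the scaffold of the same complex, and the kinesin Kif14 were among the genes called in the difference but at neither time: Incenp had effects of 0.31 and -0.22, and Kif14 of 0.33 and -0.25.

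Of the 29, 7 to 14 were called on leaving out any 1 library other than KKO replicate 2 at 24 h, WT replicate 3 at 48 h or KKO replicate 2 at 48 h, and 7 without WT replicate 2 at 48 h; the medians ran from -0.63 to -0.50. Without the libraries of mixed sex-linked transcripts 0 of 29 were called by edgeR, 26 had an unadjusted p under 0.05, and the median was -0.54 with 28 of 29 below 0. DNA replication genes, which act in S phase, gave 0 calls of 32 with edgeR, 18 at an unadjusted p under 0.05 and 8 lower with DESeq2. Without KKO replicate 2 at 48 h edgeR called 28 of the 32 lower, and without WT replicate 3 at 48 h 5. The median of all libraries was -0.24 and 31 of the 32 lay below 0. At 24 h their median effect was 0.01, beside 0.36 for the mitosis genes.

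**Figure D3:**
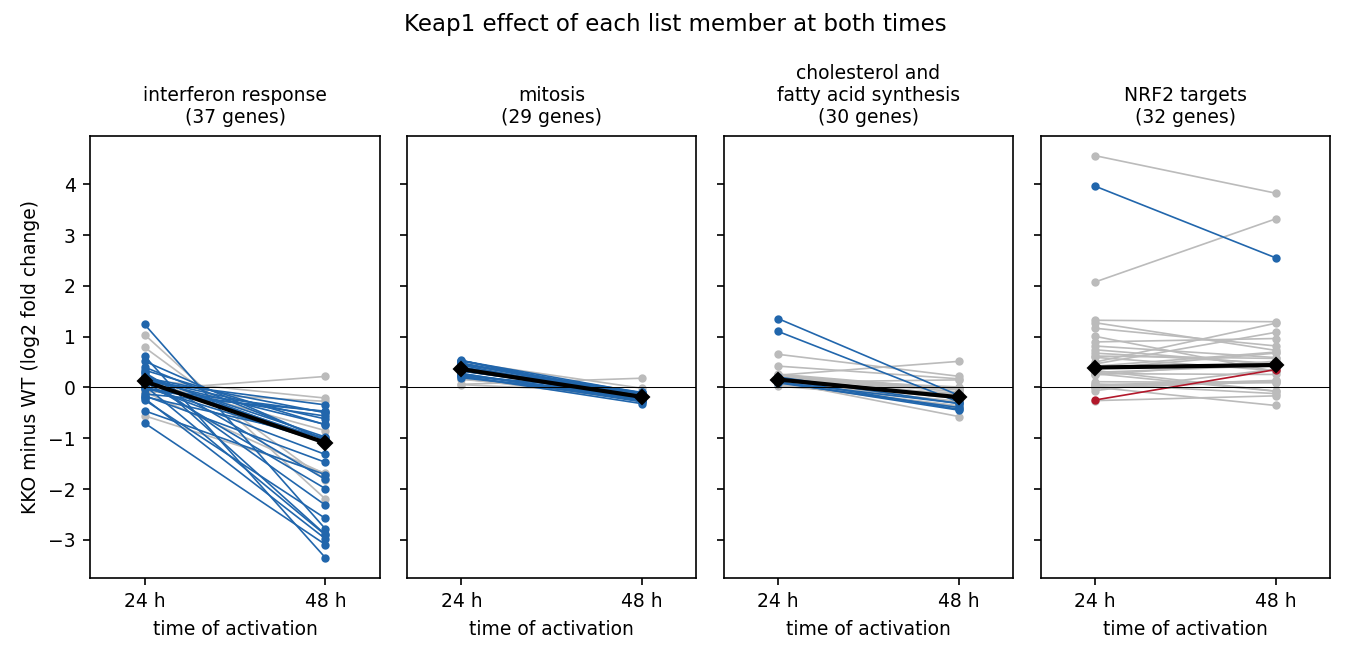
KKO over WT log2 fold change of each tested member of 4 gene lists at 24 h and 48 h, joined by a line; blue lines are called lower in the difference of effects, red lines higher, grey lines not called, and black diamonds are list medians. Interferon genes go from a median of 0.12 to -1.09, mitosis genes from 0.36 to -0.19, cholesterol and fatty acid genes from 0.16 to -0.19, and NRF2 targets from 0.39 to 0.44.

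Genes of cholesterol and fatty acid synthesis followed the mitosis genes in direction. Of 30 tested, 7 were called lower, 0 higher and 23 did not pass, with a median of -0.38 and 28 values below 0. All 30 lay above 0 at 24 h (median 0.16), and 5 did at 48 h (median -0.19). Scd1, the delta-9 desaturase that makes oleate, was at 8.5, 10.3 and 9.57 CPM in WT and 28.7, 17.9 and 25.9 CPM in KKO at 24 h. After 48 h it was at 224, 212 and 192 CPM in WT and 161, 222 and 181 CPM in KKO. The groups were separate at 24 h and overlapped at 48 h, after a 22.1-fold rise in WT and a 7.75-fold rise in KKO. Its difference of effects was -1.51 ± 0.23 (adjusted p = 0.00779, edgeR).

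Fads2, the delta-6 desaturase, had the same order, with 13.4 and 28.9 CPM in WT and KKO at 24 h, then 83.4 and 68.4 CPM at 48 h (-1.39 ± 0.26, adjusted p = 0.0175, edgeR). Without 1 library, 20 members were called lower when that was KKO replicate 2 at 48 h, 12 when it was WT replicate 3 at 48 h, 11 when it was KKO replicate 2 at 24 h, 2 to 4 for the rest other than WT replicates 1 and 2 at 24 h, and 0 by edgeR without the libraries of mixed sex-linked transcripts (14 at an unadjusted p under 0.05, median -0.33).

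The NRF2 targets had nearly equal median effects at the 2 times, while single members moved in both directions. Of 32 tested, 1 was called lower and 1 higher, and 30 did not pass. An unadjusted p under 0.05 was found for 13 of the 32, beside 2978 of all 13196 tested genes. The median difference was -0.02, from effects of 0.39 at 24 h, where 12 were called higher, and 0.44 at 48 h, where 20 were called higher and 1 lower (12.4% of all tested genes were called higher at 48 h). Single members nevertheless ran from -1.41 to 1.24, and a difference that missed the threshold does not show equal effects.

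Srxn1 (chr2:152105524-152111376, GRCm38), which encodes sulfiredoxin, the enzyme that repairs overoxidised peroxiredoxins, was the member called lower. It was at 2.54, 2.86 and 2.71 CPM in WT and 44.5, 39.1 and 43.6 CPM in KKO at 24 h. At 48 h Srxn1 was at 4.57, 4.55 and 4.32 CPM in WT and 25.1, 28.6 and 25.3 CPM in KKO. The genotypes were far apart at both times, and the 48 h groups lay between the 24 h groups. WT rose 1.65-fold and KKO fell 1.61-fold, so that the ratio of KKO to WT went from 15.6 to 5.87. The difference of effects was -1.41 ± 0.13 (adjusted p = 0.000148, edgeR), the smallest p of the comparison together with those of Klf6 and Adarb1, and it ran from -1.49 to -1.35 over all alternatives. The antioxidant response element core was searched as TGACNNNGC on both strands. It was in 17.1% of the tested genes with a window (1610 of 9420) and in 10 of 28 such NRF2 targets. The 30 bases of the Srxn1 window that hold it lie just after the start of the gene, with the match, on the opposite strand, in capitals.
Srxn1, chr2:152105542-152105571, GRCm38.p6, + strand: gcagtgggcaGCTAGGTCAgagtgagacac

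Ugdh, which makes the UDP-glucuronate used in conjugation, was called higher, by effects of -0.25 at 24 h and 0.35 at 48 h (0.60 ± 0.14, adjusted p = 0.0303, edgeR), and this call was lost in 9 of the 12 fits that left out 1 library. Nqo1, the quinone reductase, named after its values were seen, had the highest effect of the list at both times, 4.56 and 3.83, and its difference did not pass (-0.74 ± 0.34, adjusted p = 0.308, edgeR). Hmox1, heme oxygenase, had effects of 0.50 and 1.26, a difference of 0.77 ± 0.22 (adjusted p = 0.0582, edgeR). Without KKO replicate 2 at 48 h, 8 NRF2 targets were called lower and 5 higher, with a median of -0.02.

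Of the 11 genes with called effects of opposite sign, 2 were called higher and 9 lower in the difference. Adarb1 and Irf4 were lower in KKO at 24 h and higher at 48 h. The other 9, which were higher in KKO at 24 h and lower at 48 h, were Klf6, Zbtb32, Serpinb6b, Birc5, Cenpe, Kif4, Clic4, Irf5 and Plaur. Cenpe, Kif4, Clic4, Irf5 and Plaur were named after their values were seen.

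Klf6 (chr13:5861489-5870393, GRCm38), a Krüppel-like zinc finger factor, was at 87.9, 83.5 and 86.9 CPM in WT and 129, 119 and 135 CPM in KKO at 24 h. The 48 h libraries had 250, 240 and 239 CPM in WT and 165, 194 and 161 CPM in KKO. No library of one genotype overlapped the other at either time, and the order turned. The effects were 0.57 ± 0.07 at 24 h and -0.49 ± 0.07 at 48 h, and the difference was -1.05 ± 0.10 (adjusted p = 0.000148, edgeR). Klf6 rose 2.82-fold with time in WT and 1.36-fold in KKO.

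Adarb1 (chr10:77290727-77418292, GRCm38), the adenosine deaminase ADAR2 that edits double-stranded RNA, had the opposite order. It was at 84.8, 90.4 and 82 CPM in WT and 60, 62 and 60.3 CPM in KKO at 24 h. At 48 h Adarb1 was at 61.4, 57.5 and 60.2 CPM in WT and 125, 91.7 and 122 CPM in KKO. The genotypes were separate at both times: WT fell 1.44-fold from 24 h to 48 h, to the level KKO had at 24 h, while KKO rose 1.86-fold. The difference of effects was 1.42 ± 0.13 (adjusted p = 0.000148, edgeR), and 1.34 at the lowest over all alternatives. Adar, the interferon-inducible deaminase ADAR1, went the other way, at 116 and 114 CPM in WT and KKO at 24 h, then 165 and 112 CPM at 48 h (-0.53 ± 0.09, adjusted p = 0.00742, edgeR). The remaining 6 of the 8 tested RNA-editing genes did not pass.

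Zbtb32, a zinc finger repressor of activated lymphocytes, rose in both genotypes, from 20.8 to 134 CPM in WT and from 31.5 to 115 CPM in KKO. Its effects were 0.60 at 24 h and -0.22 at 48 h, where the highest KKO library and the lowest WT library were both at 119 CPM, and the difference was -0.82 ± 0.11 (adjusted p = 0.00189, edgeR). Serpinb6b, a protease inhibitor of the serpin family, had 46.9 and 62.2 CPM at 24 h and 323 and 273 CPM at 48 h in WT and KKO (-0.65 ± 0.09, adjusted p = 0.00206, edgeR). Irf4, the factor that scales with the strength of T-cell receptor signals, was at 948 and 813 CPM in WT and KKO at 24 h, then 798 and 916 CPM at 48 h (0.42 ± 0.07, adjusted p = 0.00847, edgeR).

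**Figure D4:**
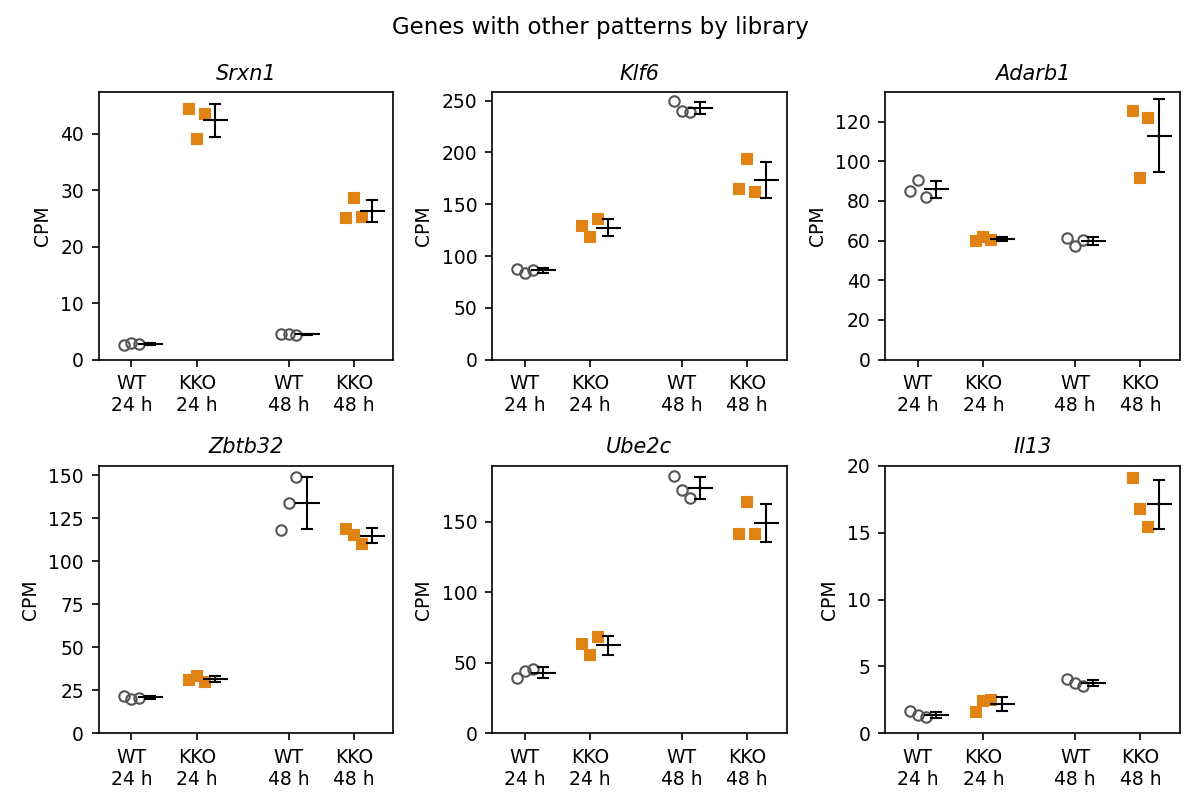
Counts per M of 6 genes in each library (WT open circles, KKO filled squares), with group mean and SD (n = 3) beside the points. Srxn1 keeps a large KKO excess that narrows from 15.6-fold to 5.87-fold, the order of the genotypes turns between 24 h and 48 h in Klf6, Adarb1, Zbtb32 and Ube2c, and Il13 is at 15.5 to 19.1 CPM in KKO at 48 h and at most at 4.03 CPM elsewhere.

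Helper T cell genes were split. Of 19 tested Th1 and cytotoxic genes, 7 were called lower, 0 higher and 12 did not pass, with a median of -0.70. Eomes, a T-box factor of cytotoxic and memory T cells, was at 34, 42.8 and 29.1 CPM in WT and 56.3, 46.1 and 37.3 CPM in KKO at 24 h, and at 40.5, 55.6 and 37.4 CPM in WT and 10.7, 18.2 and 14.1 CPM in KKO at 48 h. The genotypes overlapped at 24 h and were separate at 48 h, and Eomes fell 3.27-fold with time in KKO (difference -2.04 ± 0.33, adjusted p = 0.0115, edgeR). Gzmb, the protease granzyme B, rose steeply in both genotypes and stayed higher in KKO: 70.2 and 191 CPM in WT and KKO at 24 h, 1295 and 1807 CPM at 48 h, with effects of 1.44 and 0.48 and a difference of -0.96 ± 0.22 (adjusted p = 0.0327, edgeR). Tnf, the inflammatory cytokine, fell with time in both genotypes, from 100 to 53.1 CPM in WT and from 110 to 34.2 CPM in KKO (-0.77 ± 0.13, adjusted p = 0.00613, edgeR). The chemokine gene Xcl1 (-2.07 ± 0.47, adjusted p = 0.0298, edgeR) kept its call in 4 of the 12 fits that left out 1 library. Of the 19 genes, edgeR called 2 to 4 without any 1 library other than WT replicate 3 and KKO replicate 2 at 48 h, and 0 without the libraries of mixed sex-linked transcripts (8 at an unadjusted p under 0.05, median -0.57). Natural killer cell markers summed to 2.34 to 4.14 CPM in WT and 3.54 to 5.32 CPM in KKO at 24 h, and to 4.13 to 5.87 CPM and 3.11 to 4.25 CPM at 48 h, with Klrk1, an activating receptor, called lower among 4 tested (1.06 and 1.62 CPM, then 4.34 and 2.46 CPM). CD8 T cell markers summed to 7.7 to 9.0 CPM and 10.7 to 12.1 CPM at 24 h, and to 10.9 to 14.6 CPM and 14.7 to 15.8 CPM at 48 h, with Klrc1, a receptor of natural killer and CD8 T cells, called lower among 4 (0.411 and 0.913 CPM, then 2.39 and 1.65 CPM). The calls of Klrk1 and Klrc1 were lost in at least 8 and 9 of the 12 fits that left out 1 library. The defining genes Cd8a and Ncr1 were at most at 3.11 and 0.837 CPM in a group mean. The part of such cells in the Th1 and cytotoxic values was not tested.

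Of 16 tested Th2 genes, 1 was called higher and 1 lower. Il13, a Th2 effector cytokine, was at 1.64, 1.32 and 1.18 CPM in WT and 1.61, 2.42 and 2.51 CPM in KKO at 24 h. At 48 h it was at 4.03, 3.76 and 3.56 CPM in WT and 19.1, 16.7 and 15.5 CPM in KKO. KKO libraries were well above all others at 48 h, after a 7.88-fold rise with time that was 2.73-fold in WT (1.53 ± 0.26, adjusted p = 0.0061, edgeR). Il3, a growth factor for blood cells made by activated T cells, showed the reverse order in time: it was at 7.09 and 18 CPM in WT and KKO at 24 h, then 27.3 and 28.1 CPM at 48 h (-1.31 ± 0.25, adjusted p = 0.0159, edgeR). That call was lost without WT replicate 2 or WT replicate 3 at 24 h, and 8 of the 16 genes were called without KKO replicate 2 at 48 h.

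Of 10 tested Th17 and IL-22 genes, 4 were called higher and 1 lower, and 5 did not pass, with a median of 1.0. Ahr, the aryl hydrocarbon receptor, was at 3.43, 4.25 and 4.43 CPM in WT and 2.43, 3.74 and 3.66 CPM in KKO at 24 h, and at 3.1, 1.99 and 3.65 CPM in WT and 11.7, 5.83 and 10.9 CPM in KKO at 48 h. All KKO libraries lay above WT at 48 h, with replicate 2 the lowest of them (2.02 ± 0.39, adjusted p = 0.0143, edgeR). Batf, a partner of IRF4 in Th17 cells, and Il6ra, the interleukin 6 receptor, were called higher at 0.67 ± 0.14 and 1.16 ± 0.21. Ccr6, a chemokine receptor of Th17 cells, was called lower, at 1.12 and 1.21 CPM in WT and KKO at 24 h, then 3.96 and 1.11 CPM at 48 h (-1.95 ± 0.41, adjusted p = 0.0187, edgeR). EdgeR called 2 or 3 of the 10 without WT replicate 3 or KKO replicate 1 at 24 h, or without WT replicate 2 or KKO replicate 1 or 3 at 48 h, and 0 without the libraries of mixed sex-linked transcripts (6 at an unadjusted p under 0.05, median 0.85). Markers of gamma-delta T and innate lymphoid cells, a list that overlaps this one, summed to 11.2 to 13.2 CPM in WT and 14.2 to 15.5 CPM in KKO at 24 h, and to 4.91 to 6.64 CPM and 9.0 to 18.4 CPM at 48 h, with 1 of 4 tested called higher, a call lost in at least 8 of the 12 fits that left out 1 library. Trdc, the constant gene of the delta receptor chain, was at 2.89 and 5.8 CPM, then 2.32 and 6.15 CPM, and its difference did not pass (0.41 ± 0.35, adjusted p = 0.51, edgeR). Tcrg-C1, a gamma chain gene, was at 0.259 and 0.589 CPM, then 0.543 and 1.64 CPM. The part of such cells in these values was not tested.

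Genes that respond to the T-cell receptor within hours were called lower more often than higher. Of 35 tested immediate early and activation genes, 9 were called lower, 1 (Irf4) higher and 25 did not pass, with a median of -0.33. Nr4a1, the nuclear receptor used as a reporter of receptor signals, was at 273, 291 and 253 CPM in WT and 250, 261 and 235 CPM in KKO at 24 h. After 48 h it stood at 433, 452 and 458 CPM in WT and 234, 278 and 236 CPM in KKO. It rose 1.64-fold in WT, while in KKO the time change did not pass (-0.71 ± 0.11, adjusted p = 0.00301, edgeR). Cd69, the early activation antigen, fell with time in both genotypes, 2.06-fold in WT and 3.48-fold in KKO, from 170 to 82.5 CPM and from 138 to 39.7 CPM (-0.75 ± 0.12, adjusted p = 0.00467, edgeR). Irf8, a lymphoid and myeloid interferon regulatory factor, had 484 and 572 CPM at 24 h and 728 and 589 CPM at 48 h in WT and KKO (-0.54 ± 0.10, adjusted p = 0.0101, edgeR). Cd40lg, the CD40 ligand with which helper T cells signal to B cells, was called at -0.74 ± 0.12 (adjusted p = 0.00602, edgeR). It was the 1 gene called in a list of 16 tested TNF superfamily genes that leaves out Tnf, itself called lower. Cd40lg went from 92.7 to 60.3 CPM in WT and from 78.3 to 30.7 CPM in KKO, and 5 of the 16 were called without KKO replicate 2 at 48 h. Of the 35 activation genes, 23 were called without KKO replicate 2 at 48 h, and 4 to 6 without WT replicate 2 or 3 or KKO replicate 3 at 24 h, or without WT replicate 1 or 2 or KKO replicate 3 at 48 h.

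Of 24 tested naive T-cell and homing genes, 4 were called lower and 1 higher; 14 were called without KKO replicate 2 at 48 h and 1 to 3 without any 1 of the others, except WT replicates 1 and 3 at 48 h. Besides Klf6, the lower genes included Ccr7, the lymph node homing receptor, at 391 and 380 CPM in WT and KKO at 24 h, then 859 and 614 CPM at 48 h (-0.44 ± 0.10, adjusted p = 0.0242, edgeR). Ms4a4b, a membrane protein of naive T cells, was 1 of 2 genes called lower with a called effect in the same direction at both times that was larger at 48 h: it was at 58.5 and 31.8 CPM, then 85.4 and 21.8 CPM (-1.09 ± 0.23, adjusted p = 0.027, edgeR). That call was lost in 7 of the 12 fits that left out 1 library, with no filter on low counts, and without the libraries of mixed sex-linked transcripts. The other, Sntb1, a syntrophin that anchors membrane proteins, was at 12.5 and 8.19 CPM, then 3.97 and 1.0 CPM (-1.38 ± 0.25, adjusted p = 0.0108, edgeR). Of 13 immune checkpoint genes, Cd80 and Tox were called lower. Cd80, the ligand of CD28 and CTLA-4, was at 1.44 and 1.75 CPM at 24 h and 13.8 and 6.9 CPM at 48 h (-1.29 ± 0.27, adjusted p = 0.0175, edgeR). The count of checkpoint genes was 7 without KKO replicate 2 at 48 h and 0 by edgeR without WT replicate 3, KKO replicate 1 or KKO replicate 3 at 24 h, or WT replicate 2 or KKO replicate 3 at 48 h. It was 1 without the rest other than WT replicate 3 and KKO replicate 1 at 48 h; Tox lost its call in 9 and Cd80 in 5 of the 12 fits.

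After Adarb1, the genes called higher with the smallest p were called at 48 h and not at 24 h. Mapkapk2, the kinase downstream of p38 that stabilises cytokine mRNAs, was at 139, 145 and 145 CPM in WT and 161, 143 and 159 CPM in KKO at 24 h, and at 250, 239 and 254 CPM in WT and 433, 391 and 423 CPM in KKO at 48 h. The genotypes overlapped at 24 h and lay far apart at 48 h, with a rise of 1.73-fold in WT and 2.69-fold in KKO (0.64 ± 0.09, adjusted p = 0.00206, edgeR). St3gal1, a sialyltransferase of O-glycans, fell from 115 to 89.2 CPM in WT and rose from 109 to 139 CPM in KKO (0.73 ± 0.10, adjusted p = 0.00206, edgeR). Slc25a30, a mitochondrial carrier, was at 16.4 CPM at both times in WT and rose from 15.8 to 27.1 CPM in KKO (0.79 ± 0.11, adjusted p = 0.00206, edgeR).

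Ripk2, the kinase of the NOD receptors, rose in both genotypes, 2.21-fold in WT and 3.88-fold in KKO (0.81 ± 0.12, adjusted p = 0.00348, edgeR). Sesn3, a sestrin that restrains mTORC1 signalling, went from 37.5 to 73.4 CPM in WT and from 36.9 to 101 CPM in KKO (0.49 ± 0.08, adjusted p = 0.00467, edgeR). Ckb, brain-type creatine kinase, went from 35.5 to 63.8 CPM and from 37.9 to 115 CPM (0.75 ± 0.13, adjusted p = 0.00804, edgeR). Irf2bpl and Ggact had differences of 0.88 ± 0.13 and 0.91 ± 0.15. Mgll, the lipase that splits monoacylglycerols, was 1 of 2 genes called higher with a called rise at both times: 2.95 and 5.78 CPM in WT and KKO at 24 h, then 2.11 and 11.4 CPM at 48 h (1.48 ± 0.26, adjusted p = 0.00846, edgeR). The other, Ubl3, a ubiquitin-like protein, had effects of 0.25 and 0.63.

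Some genes were called at 24 h and not at 48 h. Atf3, a stress-induced factor, was at 13.9, 11.5 and 13.7 CPM in WT and 26.4, 21 and 30.5 CPM in KKO at 24 h, and at 125, 139 and 133 CPM in WT and 133, 145 and 122 CPM in KKO at 48 h. KKO was above WT in every library at 24 h and the groups overlapped at 48 h (-0.98 ± 0.16, adjusted p = 0.00779, edgeR). Adora2a, an adenosine receptor that dampens T-cell responses, had 25.9 and 38.2 CPM at 24 h and 49.4 and 45.7 CPM at 48 h (-0.68 ± 0.10, adjusted p = 0.00301, edgeR). In the list of 28 ATF4 and amino acid stress genes, Atf3 and Chac1 were called lower and Gadd45a higher. The list had 10 calls without KKO replicate 2 at 48 h and 1 without any 1 of 7 libraries (WT replicate 2 or 3 or KKO replicate 1 at 24 h, or WT replicate 1 or 2 or KKO replicate 1 or 3 at 48 h). Chac1 lost its call in 9 and Gadd45a in 8 of the 12 fits, and Atf3 in 0 of them.

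Metabolic lists gave few calls with all libraries and more without KKO replicate 2 at 48 h. So did all tested genes, with 552 of 13196 called and then 3217 of 13525. Of 24 glycolysis and glucose uptake genes, 1 was called, Pfkm, the muscle-type phosphofructokinase, at 17.8 and 17.7 CPM in WT and KKO at 24 h, then 39.2 and 63 CPM at 48 h (0.69 ± 0.15, adjusted p = 0.0207, edgeR). The median of the list was 0.16, with 22 of 24 above 0. Its count was 5 without KKO replicate 2 at 48 h and 0 by edgeR without any 1 of 6 libraries (WT replicate 3 or KKO replicate 1 at 24 h, or WT replicate 1 or 2 or KKO replicate 1 or 3 at 48 h). Of 23 tricarboxylic acid cycle genes, 1 was called, Suclg1, a subunit of succinyl-CoA synthetase, at 98.6 and 96.1 CPM, then 132 and 185 CPM (0.53 ± 0.11, adjusted p = 0.0155, edgeR). Of 40 nuclear genes of oxidative phosphorylation 0 were called by edgeR and 1 by DESeq2. An unadjusted p under 0.05 was found for 9 of the 40, beside 2978 of all 13196 tested genes. Their median difference was 0.13 and 38 lay above 0. Without KKO replicate 2 at 48 h, 7 tricarboxylic acid cycle and 6 oxidative phosphorylation genes were called, and without WT replicate 3 at 48 h 2 of the cycle genes were.

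Glutamine and glutamate genes gave 0 calls of 26 by edgeR, with 8 at an unadjusted p under 0.05 and 1 called by DESeq2, and a median of -0.10. Pentose phosphate and NADPH genes gave 0 of 16 by edgeR, 5 at an unadjusted p under 0.05 and 0 by DESeq2. Without KKO replicate 2 at 48 h the counts were 11 (9 lower) and 6 (4 lower), and 1 each without WT replicate 3 at 48 h. Of 20 endoplasmic reticulum chaperone and secretion genes, 3 were called higher: P4hb, a protein disulphide isomerase, Sec61b, a subunit of the translocon, and Sdf2l1, with differences of 0.49, 0.45 and 0.31. The count was 8 without KKO replicate 2 at 48 h and 0 or 1 without any 1 of the rest other than WT replicate 1 at 24 h and WT replicate 3 at 48 h; P4hb and Sdf2l1 each lost their call in 9 of the 12 such fits, and Sec61b in 5. By edgeR 0 genes were called of 25 for ribosome biogenesis (median -0.26, 9 at an unadjusted p under 0.05, 1 by DESeq2), 17 for regulatory T cells (5 and 4), 18 for the hypoxia response (3 and 1), 15 for iron and heme (2 and 1) and 19 for p53 and apoptosis (8 and 4). Without KKO replicate 2 at 48 h, edgeR called 20 of the ribosome biogenesis genes (19 lower), 7 of the regulatory T cell, 3 of the hypoxia, 3 of the iron and heme and 8 of the p53 genes. It called 4 regulatory T cell genes, and 1 each for ribosome biogenesis, hypoxia and iron, without WT replicate 3 at 48 h, and 1 p53 gene without WT replicate 1 at 48 h. Among 13 Keap1 and NRF2 partner genes 0 were called by edgeR or DESeq2, with 4 at an unadjusted p under 0.05 and a median of 0.04, and 4 were called without KKO replicate 2 at 48 h.

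**Figure D5:**
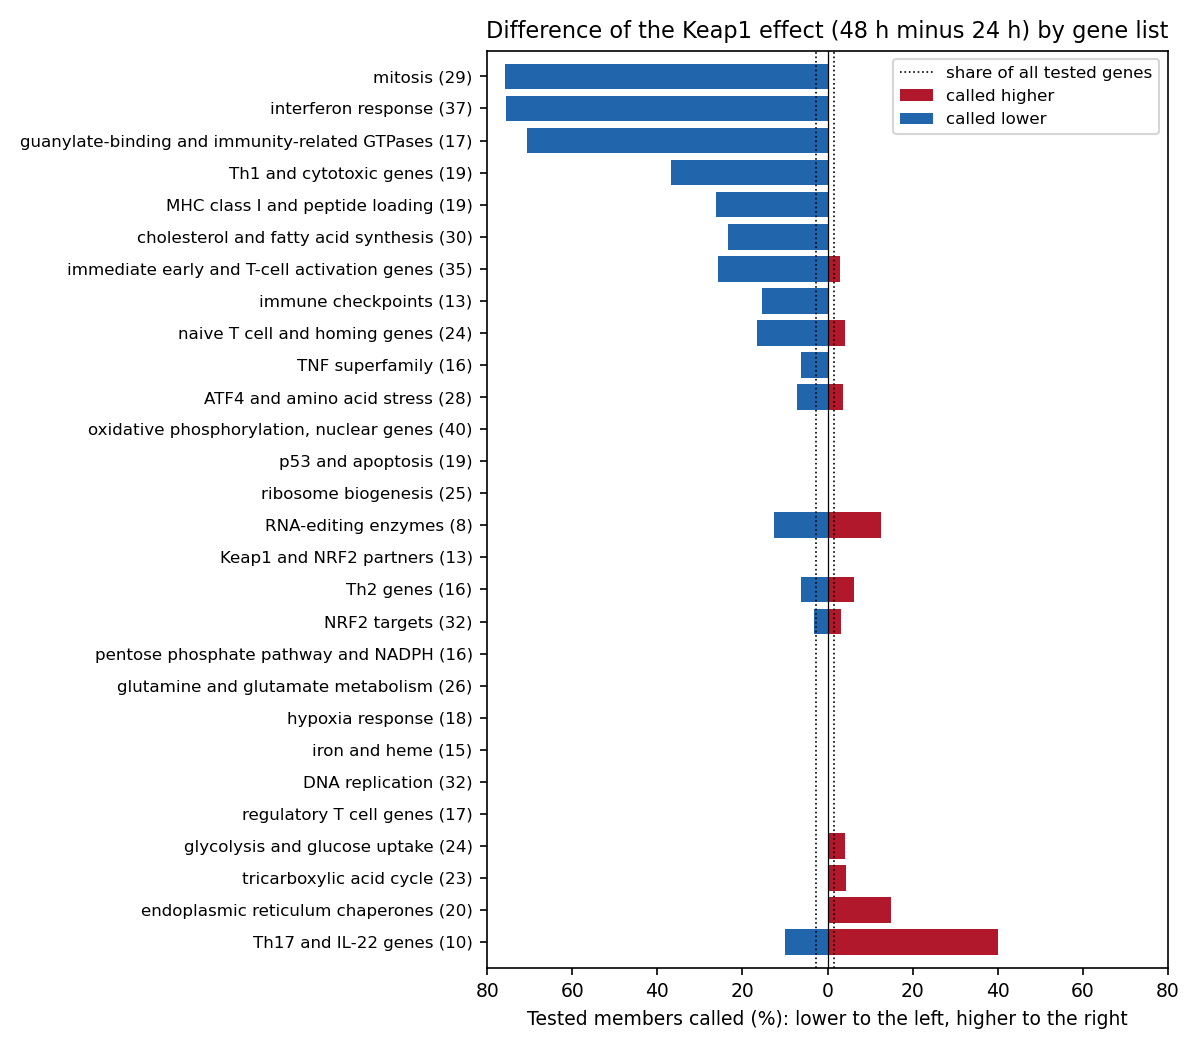
Share of the tested members of each gene list (number in brackets) called lower (blue, to the left) or higher (red, to the right) in the difference of effects; dotted lines mark the 2.72% and 1.46% of all tested genes called lower and higher. Mitosis, interferon response and GTPase lists have 75.9, 75.7 and 70.6% of members called lower, and Th17 and IL-22 genes have 4 of 10 called higher.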

How the data were processed

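The deposited file holds expected counts per gene from RSEM, which the authors deposited without normalisation and in which a read that fits several genes is divided between them. Reads were checked with FastQC and counted against mm10, per the submitters' processing notes. The design text names a human reference, while the organism label and the gene symbols are of mouse. For the aligner, the RSEM version and the annotation, names are not given in the sources used here. Another 6 columns of the file, which no sample label describes, were not used.

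Expected counts were rounded and fitted in edgeR 4.0.16 (R 4.3.3, limma 3.58.1) with 1 mean per group over all 12 libraries (8 residual degrees of freedom), after filterByExpr and TMM scaling, with robust quasi-likelihood dispersions. The 2-sided quasi-likelihood test of the difference of effects was adjusted by the Benjamini-Hochberg method over 13196 genes. CPM use TMM-scaled library totals. The fit was also run on simulated counts drawn around 1 mean per group. These held no library set apart from its group, so that run does not cover such a case. Of the 32699 genes, 13174 had 0 counts in all 12 libraries, and 20 tested genes had names turned into dates, 0 of them called by edgeR in the difference of effects. Positions and promoter windows came from RefSeq (GRCm38), with positions for 93.0% of tested genes and windows for 9420.

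The genes, gene lists and alternatives were chosen with earlier results of these data known. Named genes are Keap1, Nfe2l2, Oasl2, Srxn1, Adarb1 and Klf6; of called genes averaging 2 CPM or more, the 12 with the smallest p in each direction and up to 4 of each pattern over time; and up to 4 called members of each list, or else its member with the smallest p. A few of these genes are not reported here. The alternatives comprised 2 scalings (upper quartile, RLE), limma-voom, DESeq2 1.42.0, 2 other filters, replicate blocks, the share of Y-linked transcripts as a covariate, stricter thresholds, and fits without single libraries or without the 2 libraries of mixed sex-linked transcripts.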

Additional observations from a re-analysis of the deposited data

Results flagged for a closer look

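By the test of the difference itself, the effect of Keap1 loss differed between 24 h and 48 h in 552 genes. Among the genes chosen by the naming rule above, 6 had called effects of opposite sign at the 2 times, and they are given here for that reason. Their differences of effects (48 h minus 24 h, log2) were 1.42 for Adarb1 and 0.42 for Irf4, which were lower in KKO at 24 h and higher at 48 h. They were -1.05 for Klf6, -0.82 for Zbtb32, -0.65 for Serpinb6b and -0.54 for Birc5, which were higher in KKO at 24 h and lower at 48 h. Without the libraries of mixed sex-linked transcripts the calls of Birc5 and Irf4 were lost by edgeR, at adjusted p-values of 0.0595 and 0.0735.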

How the results depend on the processing

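The 552 calls (193 higher, 359 lower) became 1120 (501 and 619) with DESeq2, 1368 (648 and 720) with the share of Y-linked transcripts as a covariate, 85 (17 and 68) at an adjusted p under 0.01, 148 (36 and 112) at 2-fold or more, and 54 (10 and 44) without the libraries of mixed sex-linked transcripts. With single libraries left out they ran from 143 (37 and 106, without WT replicate 2 at 48 h) to 3217 (1270 and 1947, without KKO replicate 2 at 48 h). The split moved from 35.0% higher to 44.7% with DESeq2. RLE and upper-quartile scaling, limma-voom and 2 other filters gave 520 to 695 calls. Whether replicate numbers pair the libraries across time is not labelled. The deviations from group means of libraries with the same number had correlations of 0.126, 0.103 and 0.343 in WT, where the sex-linked transcripts also matched by number. In KKO they were 0.0287, 0.0852 and 0.0408, and the sex-linked transcripts of replicates 1 and 3 did not match by number. KKO replicate 1 was mixed at 24 h only, and KKO replicate 3 at 48 h only. Not every library correlated best with its own number, and a block by number may join unlike KKO libraries. With the replicate number as a block 637 genes were called (250 and 387), and with a block within each genotype 931 (452 and 479). All tested members of the 552 kept their sign in every alternative. They were chosen by their difference in libraries that these alternatives reuse, so a kept sign was likely beforehand. Of 80 called genes named by the rule, 51 were called in all 12 fits that left out 1 library, and 28 in all other alternatives. With 3 libraries a group, the median standard error of a difference of effects was 0.139 (log2), and the smallest difference called was 0.27. The cause of these shifts was not tested.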

Other observations

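Gene families taken by symbol after their values were seen overlap the groups above, and no test was made of a family. Irf7, Parp12, Trim25, Trim30a, Slfn1 and Kif14, among others, are counted here again. Over all tested genes 2.72% were called lower and 1.46% higher. Schlafen genes, several of which restrain T-cell growth or viral replication, had 5 of 8 tested members called lower and 0 higher. Slfn8 had 15.8 and 14.3 CPM in WT and KKO at 24 h, then 28.5 and 10.8 CPM at 48 h, and Slfn5 had 5.05 and 5.45 CPM, then 26.1 and 14.6 CPM. PARP genes, which transfer ADP-ribose, had 5 of 12 called lower, among them Parp14 with 90.5 and 90.8 CPM at 24 h and 158 and 74.4 CPM at 48 h. TRIM ubiquitin ligases had 8 of 42 called lower and 0 higher, and Trim30d went from 4.38 to 36.9 CPM in WT and from 4.02 to 11.8 CPM in KKO. Centromere protein genes had 2 of 19 called lower and 0 higher. SLC25 carriers had 1 of 38 called lower and 2 higher.

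Among 9 tested interferon regulatory factors, 5 were called lower and 1, Irf4, higher. Irf1, an activator of interferon-gamma targets, was at 207 and 193 CPM at 24 h and at 196 and 119 CPM at 48 h in WT and KKO. Of 7 STAT genes 3 were called lower, and Stat4, which signals for interleukin 12, had 78.6 and 74.5 CPM, then 230 and 141 CPM. Kinesins, the motors of spindle and transport, had 11 of 30 called lower and 1 higher. The higher one, Kif3a, a motor of ciliary and vesicle transport, was at 7.40 and 8.78 CPM at 24 h and at 17.0 and 29.8 CPM at 48 h (0.56 ± 0.12, adjusted p = 0.0218, edgeR). Il10, Maf and Il2, named after their values were seen, had large differences that did not pass. Il10 gave 2.60 ± 0.72 (adjusted p = 0.0557, edgeR), Maf 2.09 ± 0.67 (adjusted p = 0.0948, edgeR) and Il2 -2.02 ± 0.59 (adjusted p = 0.0949, edgeR). In each of the 3, KKO replicate 2 at 48 h lay nearest to WT: Il2 was at 10, 48.7 and 18.7 CPM in the KKO libraries at 48 h and at 102, 82.8 and 74.8 CPM in WT.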
